A study of Catharanthus roseus with 35 samples.

Results

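The genes described here are the 150 transcripts of Catharanthus roseus, the Madagascar periwinkle, that were most strongly raised in the older leaf pair 4 over the young leaf pair 1 both in plants kept indoors and in plants kept outdoors. They were chosen on CPM (the counts of a gene per 1000000 counts of its library). Of 35722 annotated genes, 10819 had a mean of at least 10 CPM in leaf pair 4 in both growth conditions. Each of these was scored by the lower of its indoor and outdoor log2 ratios of pair 4 to pair 1, computed on group means after adding 1 CPM, and the 150 highest scores were taken. The values of leaf pairs 1 and 4 therefore chose the genes, and the pair 4 to pair 1 difference is described below without a test.

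The study sequenced leaf RNA of the cultivar Little Bright Eye. Leaves of pairs 1 to 4, counted from the shoot apex of flowering plants, came from plants held in a growth chamber at 25 °C with 16 h of light a day at 70 µmol m-2 s-1 (indoors) or from plants moved to a south-facing place outdoors, with 3 samples per leaf pair and condition. The outdoor plants had stood there in direct sun for several months. Leaves of both sets were collected on a hot sunny day, and their central veins were removed. Pairs 1 and 4 were read as Illumina libraries and pairs 2 and 3 as Nanopore libraries, so levels were not compared across these platforms. A separate fluorescence-activated cell sorting (FACS) experiment used young but fully developed leaves of pairs 2 to 4, pooled within each replicate. They came from chamber-grown plants several months old. There were 3 samples each of total protoplasts before sorting and of the idioblast and common mesophyll protoplasts sorted from them. Whole leaves gave 2 samples. Protoplasts are cells whose walls were digested by enzymes. Idioblasts are alkaloid-storing cells spread through the leaf among the common mesophyll cells, which carry out most photosynthesis. No genotype other than the cultivar is given for any group. In these bulk samples fewer cells of a type and less RNA per cell cannot be told apart.

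As a leaf matures it stops building new cells and turns to photosynthesis, storage and, later, the recovery of carbon and nitrogen from starch, protein and cell walls. In plants generally, ageing leaves raise transcription factors of the NAC family, enzymes of starch and wall breakdown and transporters of nitrogen compounds. C. roseus leaves also make monoterpenoid indole alkaloids (MIAs), among them vindoline and catharanthine, the precursors of the anticancer drugs vinblastine and vincristine, and many genes of that pathway are known for their activity in young leaves. The count tables give gene IDs without names. Descriptions could be read for 21 of the 150 genes, and the others are given by ID only. Since most of these descriptions stand in the study's tables of genes tied to idioblasts, the described genes are not an even sample of the 150.

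Illumina libraries held 10263533 to 17625811 counts and Nanopore libraries 85976 to 732961, the shallowest being replicate 1 of pair 2 indoors. The 150 genes took 0.209% to 0.712% of all counts in pair 1, 2.52% to 3.45% in pair 4 and 2.28% to 5.08% in the FACS experiment, and 0.574% to 2.64% in pair 2 and 1.38% to 4.01% in pair 3. Several libraries stood apart from their groups. Among the Nanopore libraries, replicate 3 of pair 3 indoors had 3.85% of its counts in the 150 genes, against 1.38% and 1.73% in replicates 1 and 2. Replicate 3 of pair 2 indoors had 1.94%, against 0.990% and 0.574%, and so lay above replicates 1 and 2 of pair 3 indoors. In replicate 1 of pair 1 indoors 149 of the 150 genes were highest in their group, by a median of 2.35-fold over the mean of the other 2 replicates, while the median over all genes was 0.953-fold. FACS leaf 1 had 5.08% of its counts in the 150 genes against 2.31% in FACS leaf 2, and 90 of the genes differed by over 2-fold between them. The study's own model did not include the FACS leaves, owing to their spread. The summed level of 8 epidermis markers was 2361 to 2673 CPM in pair 1 and 610.0 to 895 CPM in pair 4 indoors, and 1701 to 1815 and 164 to 300.2 CPM outdoors. That of 6 markers of internal phloem-associated parenchyma was 1221 to 1332 and 507 to 709 CPM indoors, and 958 to 1142 and 456 to 675 CPM outdoors. The 2 idioblast markers, DAT and D4H, summed to 1153 to 1193 and 1062 to 1188 CPM indoors, and to 709.9 to 1012 and 509 to 633 CPM outdoors. D4H made up most of each sum. Indoors DAT had 172, 196 and 201 CPM in pair 1 and 95.8, 80.5 and 60.4 CPM in pair 4. D4H had 1008, 997 and 952 CPM against 1092, 1060 and 1001 CPM. Outdoors DAT had 105, 131 and 189 against 50.4, 78.1 and 69.9 CPM, and D4H 605, 624 and 824 against 459, 537 and 563 CPM. No marker was at 0 over a group and none is among the 150 genes, and the part of these shifts in the results below was not tested.

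**Figure D1:**
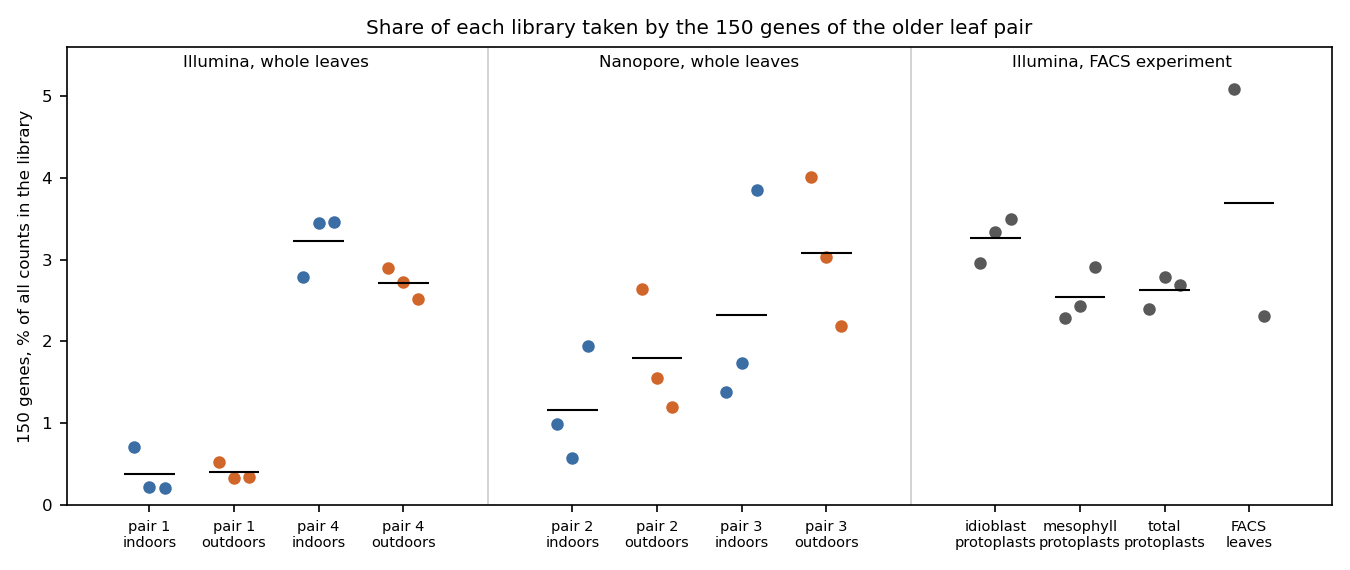
Percentage of all counts of each library (y axis) that fell on the 150 genes, by sample group (x axis); points are libraries, bars are group means, and colour separates indoors from outdoors. Pair 1 lies at 0.209% to 0.712% with replicate 1 of the indoor group highest, pair 4 at 2.52% to 3.45%, and FACS leaf 1 at 5.08%.

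The chosen genes rose from pair 1 to pair 4 by 1.79 to 4.45 on the log2(CPM + 1) scale indoors, with a median of 2.84, and by 1.79 to 5.41 outdoors, with a median of 2.38. Over the 10819 genes the medians were -0.12 and -0.02. All 3 samples of pair 4 lay above all 3 of pair 1 for 150 of the 150 genes indoors and 149 outdoors, where 27.2% and 28.3% of the 10819 genes did so, and nothing is read from this because the rule used the contrast. The 1 exception, named after its values were seen, was CATHA_27231, at 113, 29.2 and 26.3 CPM in pair 1 and 351, 111 and 134 CPM in pair 4 outdoors. The outdoor ratio was the lower of the 2 ratios for 106 genes and the indoor ratio for 44. In pair 1 the mean was under 10 CPM for 89 genes indoors and 97 outdoors, and in pair 4 it reached 100 CPM for 52 and 39. Just inside the limit lay CATHA_31792 and CATHA_36446, both with a score of 1.79, and just outside it CATHA_24762 with 1.78 and CATHA_12622 with 1.76. Without replicate 1 of pair 1 indoors, 140 of the 150 genes were chosen again.

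The highest score, 3.79, belonged to CATHA_3498, a xyloglucan endotransglucosylase/hydrolase, an enzyme that cuts and rejoins the xyloglucan chains of the cell wall. It had 1.46, 0.0717 and 0.0836 CPM in pair 1 and 24.1, 30.6 and 15.2 CPM in pair 4 indoors. Outdoors it had 0.298, 0.198 and 0.641 CPM in pair 1 and 4.81, 13.3 and 36.1 CPM in pair 4, so the groups were apart in both conditions but spread widely in pair 4 outdoors. The next 4 scores were those of CATHA_26806 (3.75), CATHA_22036 (3.60), CATHA_7403 (3.58) and CATHA_5192 (3.56), none of which has a description. CATHA_5192 had 18.8, 10.2 and 7.44 CPM in pair 1 and 207, 293 and 146 CPM in pair 4 indoors. Some of the genes carry neighbouring IDs. In 10 runs of IDs no more than 5 apart, 23 of the genes were found together, the longest run being CATHA_3496, CATHA_3498, CATHA_3501 and CATHA_3504. Close copies of a gene can share reads, so the split of counts within such runs is uncertain.

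Among the regulators, ZCT3 (CATHA_28203), a zinc-finger protein known in C. roseus as a repressor of MIA gene promoters, had 60.2, 2.65 and 1.09 CPM in pair 1 and 255, 239 and 192 CPM in pair 4 indoors. Outdoors it had 4.92, 1.59 and 4.199 CPM and 73.6, 149.7 and 83.5 CPM. The first value of pair 1 indoors is from the replicate that stands apart, and pair 4 lay above it all the same. A NAC domain gene, CATHA_26934, had 0.0836 to 2.39 CPM in pair 1 and 18.6 to 31.6 CPM in pair 4 indoors, and 0.498 to 1.94 and 25.3 to 39.6 CPM outdoors. Homeobox knotted-1-like 3 (CATHA_27845), of a family of developmental regulators, had 5.18 to 13.9 and 42.2 to 76.6 CPM indoors. Each of the 3 regulators lay higher in every pair 4 sample than in every pair 1 sample of the same condition.

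Other described genes serve storage, transport and energy. Beta-amylase (CATHA_23527), which releases maltose from starch, had 49.3, 8.97 and 14.4 CPM in pair 1 and 198, 178 and 255 CPM in pair 4 indoors, and 44.02, 27.1 and 22.6 against 238, 181 and 195 CPM outdoors. A high-affinity nitrate transporter (CATHA_10418) had 5.52 to 27.1 and 66.7 to 73.4 CPM indoors and 7.83 to 18.8 and 47.1 to 155 CPM outdoors. The mitochondrial uncoupling protein 5-like gene (CATHA_7653), of a family of carriers in the inner mitochondrial membrane, had 25.7 to 40.5 and 84.04 to 189 CPM indoors. Of the signalling and defence genes, the receptor-like kinase CATHA_7255 had 0.717 to 2.46 CPM in pair 1 and 11.2 to 20.4 CPM in pair 4 indoors. The mitogen-activated protein kinase kinase kinase CATHA_20233 had 0.836 to 2.59 and 24.2 to 44.4 CPM, and CATHA_21801, with an NB-ARC domain as found in plant immune receptors, 5.43 to 6.25 and 22.7 to 33.3 CPM. HSPRO2 (CATHA_29872), a nematode resistance protein-like gene, had 10.7 to 55.1 CPM in pair 1 and 218 to 316 CPM in pair 4 indoors. The remaining described genes, among them a phloem protein (CATHA_18236), a clathrin assembly protein of vesicle traffic (CATHA_6372), a Nudix hydrolase (CATHA_9385), Oxidative stress 3 (CATHA_16439), a protein kinase domain gene (CATHA_19986) and the EGF-like domain gene near it in ID order (CATHA_19988), stand in the plot of the described genes.

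**Figure D2:**
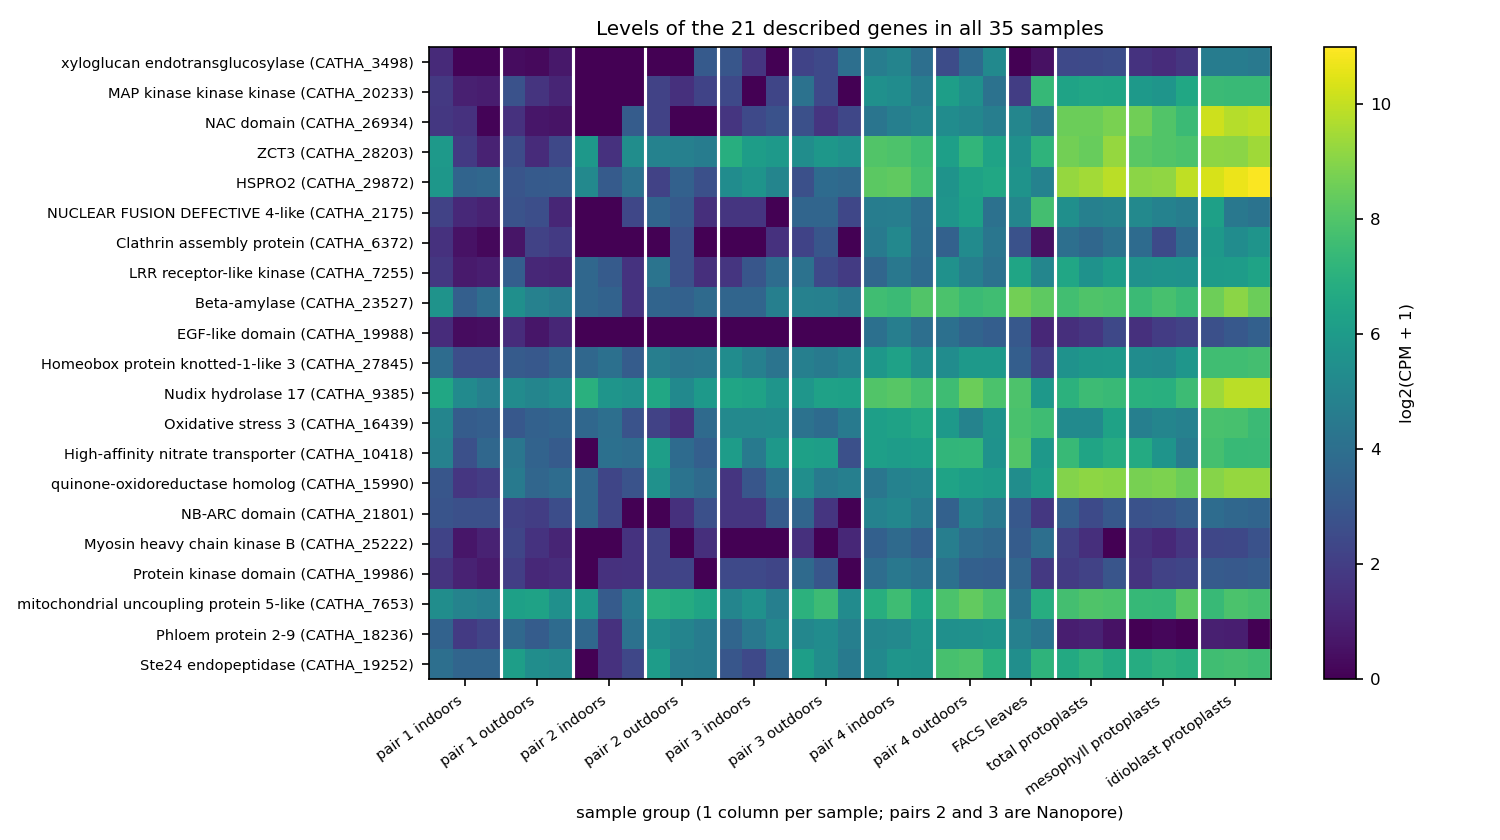
Level of each of the 21 described genes (rows) in each of the 35 samples (columns, grouped on the x axis), as log2(CPM + 1) by colour from dark (low) to yellow (high); pairs 2 and 3 are Nanopore libraries. Rows are darker in pair 1 than in pair 4, and the NAC domain gene (CATHA_26934) is brightest in idioblast protoplasts, at 877 to 1136 CPM.

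Leaf pairs 2 and 3 lie between the chosen extremes and were not used by the rule, so they ask whether the genes were already higher in the older of these neighbouring pairs. By mean CPM, 130 of the 150 genes (86.7%) were higher in pair 3 than in pair 2 indoors and 125 (83.3%) outdoors, where 45.7% and 37.6% of the 10819 genes were, and 110 were higher in both conditions. Counts were low, and 20 of the genes had no count in any pair 2 sample indoors. A single gene outside the 150, CATHA_38647, took 11.5% to 29.8% of the counts of each Nanopore library. Its share was 11.5% to 18.6% in pair 2 and 16.2% to 17.8% in pair 3 indoors. Outdoors it was 18.4% to 23.6% and 19.4% to 29.8%. The CPM of all other genes depends on that share, and these counts by mean CPM were not corrected for it. In a fit of the Nanopore counts averaged over both conditions, 70 of the 150 genes passed the filter on low counts. By edgeR's quasi-likelihood test, with limits of 0.05 on the Benjamini-Hochberg adjusted p and 1 on the size of the log2 fold change, 8 of these were called higher in pair 3 and 0 lower, when 0.23% of the 5641 genes tested were called higher and 0.62% lower. These 8 are among 13 genes called higher in all. At an unadjusted p under 0.05, 40 of the 70 were higher and 0 lower by edgeR, where 5.92% of the 5641 genes were higher and 6.88% lower. DESeq2 called 3 higher and 0 lower, where 0.156% of the 3841 genes with an adjusted p were higher and 0.651% lower. With the replicate number as a block 32 of the 70 were called higher, where 1.06% of all genes tested were, and with no filter on low counts 30 of 148, where 0.304% of 18738 genes were. Of the 70, 69 had a positive fold change, with a median of 0.97 against 0.00431 over all genes tested. The count of calls rested on single libraries. Without replicate 2 of pair 2 indoors or replicate 2 of pair 2 outdoors edgeR and the same limits called 0 of the 77 genes then tested, where 0% and 0.0315% of all genes were called higher. At an unadjusted p under 0.05, 35 and 40 of the 77 were higher in these fits, where 4.65% and 5.02% of all genes were. Without replicate 3 of pair 3 indoors 3 were called (0.0794% of all genes), without replicate 1 of pair 3 outdoors 4 (0.095%), without replicate 1 of pair 2 indoors 5 (0.128%) and without replicate 3 of pair 3 outdoors 5 (0.173%). The epidermis markers summed to 651 to 1151 CPM in pair 2 and 387 to 667 CPM in pair 3 indoors, and to 283 to 329.7 and 69.98 to 149.8 CPM outdoors, and their part was not tested.

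Of the 8, only CATHA_12421 had every pair 3 sample above every pair 2 sample of both conditions. It had 11.6, 13.8 and 14.3 CPM in pair 2 and 28.7, 30.9 and 41.2 CPM in pair 3 indoors, and 28.3, 15.2 and 25.5 against 62.6, 44.1 and 30.5 CPM outdoors. Its log2 fold change was 1.24 ± 0.28 (SE), at an adjusted p of 0.02799 by edgeR. This call was lost without replicate 2 of pair 2 indoors (edgeR adjusted p = 0.114) or outdoors (0.103), replicate 3 of pair 3 indoors (0.0659) or replicate 1 of pair 3 outdoors (0.0778), and by DESeq2 (0.0572). The 11.6 CPM of CATHA_12421, like that of CATHA_16439, is from the shallowest library, of 85976 counts, and rests on very few reads. Oxidative stress 3 (CATHA_16439) had 11.6, 15.2 and 6.12 CPM in pair 2 and 35.3, 35.3 and 37.3 CPM in pair 3 indoors. Outdoors it had 3.53, 1.91 and 12.8 against 16.6, 13.2 and 21.8 CPM. The older pair was above the younger in each condition, by 1.65 ± 0.38 on the log2 scale (edgeR adjusted p = 0.02799). That call was lost without replicate 2 (edgeR adjusted p = 0.05795) or 3 (0.0682) of pair 2 indoors, replicate 2 of pair 2 outdoors (0.108) or replicate 3 of pair 3 outdoors (0.07299), and DESeq2 gave the gene no adjusted p. The other 6, named after their values were seen, were CATHA_10825 (1.11), CATHA_20057 (1.14), CATHA_11429 (1.26), CATHA_4661 (1.29), CATHA_9313 (1.47) and CATHA_15435 (1.91), with the log2 fold change of pair 3 over pair 2 in parentheses.

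Several described genes had fold changes of like size without passing the test. ZCT3 (CATHA_28203) had 58.2, 1.97 and 40.8 CPM in pair 2 and 117, 68.5 and 60.9 CPM in pair 3 indoors, and 28.3, 26.7 and 23.7 against 40.5, 55.1 and 46.4 CPM outdoors, a log2 fold change of 1.37 ± 0.35 (edgeR adjusted p = 0.0611). Beta-amylase (CATHA_23527) had 1.31 ± 0.40 (edgeR adjusted p = 0.0992), HSPRO2 (CATHA_29872) 1.16 ± 0.38 (0.139) and knotted-1-like 3 (CATHA_27845) 0.86 ± 0.30 (0.1801). The xyloglucan endotransglucosylase/hydrolase CATHA_3498 had no count in 5 of the 6 pair 2 samples and 0 to 15.4 CPM in pair 3, and was too low to be tested. The EGF-like domain gene CATHA_19988 had no count in any Nanopore library.

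**Figure D3:**
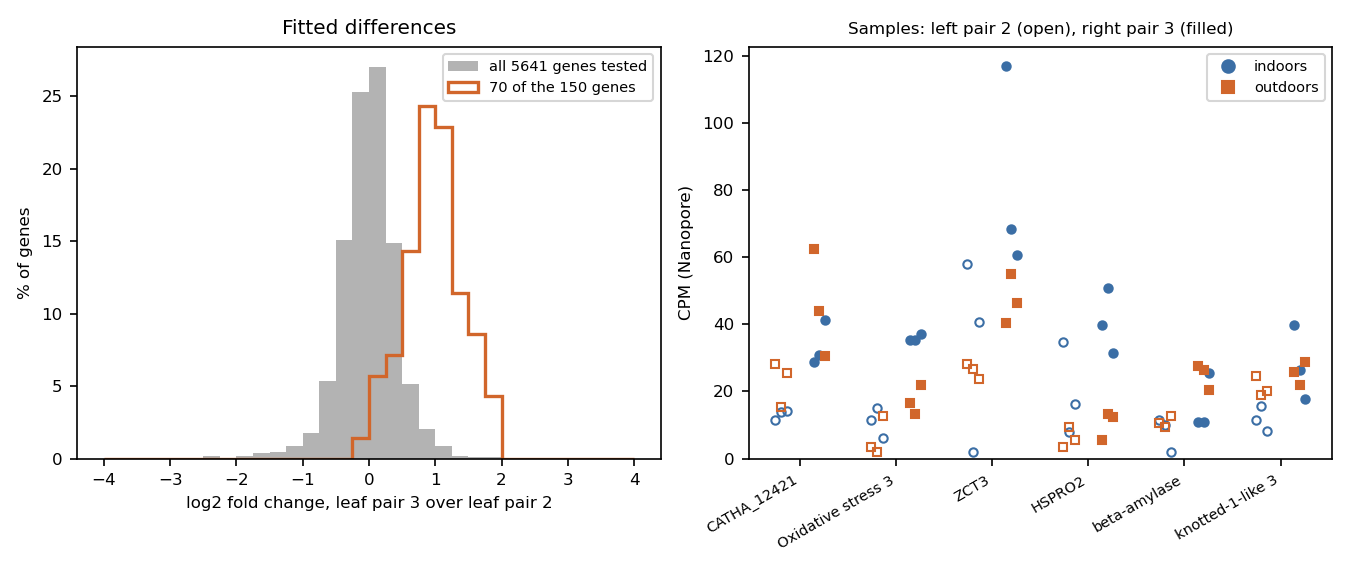
Left, percentage of genes (y axis) by fitted log2 fold change of leaf pair 3 over pair 2 (x axis), grey for all 5641 genes tested and orange outline for the 70 of the 150 genes that could be tested, whose median is 0.97. Right, Nanopore CPM (y axis) of each sample for 6 genes (x axis), with pair 2 as open and pair 3 as filled symbols, circles indoors and squares outdoors; all CATHA_12421 samples of pair 3 lie above those of pair 2.

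Growth condition was the study's other factor. Pairs 2 and 3 were not used by the rule and were tested for it, while the growth differences of pairs 1 and 4 are given as a description with no test, since these samples chose the genes. In the Nanopore libraries 70 of the genes were tested. In pair 3, 9 were called higher outdoors and 4 lower by edgeR, where 6.51% and 6.67% of 5641 genes were, and in pair 2, 13 higher and 3 lower, where 6.01% and 4.18% were. In both of these pairs 8 of the 70 were called higher and 2 lower, where 3.72% and 2.59% of the 5641 genes were. Without replicate 3 of pair 3 indoors 17 were called higher in pair 3, where 6.59% of all genes then tested were. With the replicate number as a block 14 were, beside 7.52% of all genes. Without replicate 2 of pair 2 indoors 6 were called higher in pair 2, where 3.49% of all genes then tested were. The epidermis markers summed lower outdoors than indoors in both pairs, at the levels given above, and their part was not tested.

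Among the 8 genes called higher outdoors in pairs 2 and 3, CATHA_19624 had 0, 1.97 and 10.2 CPM indoors and 95.4, 43.8 and 47.4 CPM outdoors in pair 2, a log2 fold change of 3.44 ± 0.53 (edgeR adjusted p = 6.07e-05). In pair 3 it had 8.83, 6.62 and 5.89 CPM indoors and 97.6, 62.4 and 65.5 CPM outdoors, or 3.58 ± 0.44 (edgeR adjusted p = 2.16e-06). No indoor sample of either pair reached an outdoor sample of the same pair. In pair 1 it had 4.79, 2.94 and 3.34 CPM indoors and 72.004, 49.1 and 39.5 CPM outdoors, and in pair 4 12.7, 24.9 and 23.95 against 225, 213 and 229.8 CPM, with log2 fold changes of 3.90 ± 0.33 and 3.35 ± 0.29 given without a test.

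CATHA_10135 had log2 fold changes of 2.75 ± 0.59 in pair 2 and 3.90 ± 0.52 in pair 3 (edgeR adjusted p = 0.00211 and 5.08e-06), with no overlap of the conditions. In pair 4 it had 20.2, 23.6 and 20.2 CPM indoors and 269, 305 and 141 CPM outdoors, a log2 fold change of 3.40 ± 0.62, and in pair 1 it had 3.85 ± 0.68. The Ste24 endopeptidase gene (CATHA_19252), whose family of membrane proteases trims prenylated proteins, had 2.67 ± 0.50 in pair 3 (edgeR adjusted p = 3.90e-04). In pair 2 it had 0, 1.97 and 4.08 CPM indoors, 3 counts in all, against 45 counts outdoors, a ratio of 11.97 with a 95% counting interval of 3.84 to 60.2, which covers counting error only. In pair 1 it had 15.2, 11.1 and 11.1 CPM indoors and 70.1, 40.7 and 35.5 CPM outdoors, and in pair 4 35.8, 52.5 and 49.8 against 221, 242 and 128 CPM, log2 fold changes of 2.02 ± 0.32 and 2.01 ± 0.30. The pair 2 and pair 3 calls of these 3 genes held in every alternative run.

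The chloroplast quinone-oxidoreductase homolog (CATHA_15990) was higher by 2.04 ± 0.67 in pair 2 and 2.03 ± 0.52 in pair 3 on the log2 scale, and had 1.99 ± 0.38 in pair 1 and 1.40 ± 0.33 in pair 4. Its pair 2 call (edgeR adjusted p = 0.04201) was lost by DESeq2 (0.101) and without each indoor replicate or replicate 1 or 2 outdoors (edgeR, 0.0517 to 0.2098), and its pair 3 call (0.00774) without replicate 1 of pair 3 indoors (0.0638). The uncoupling protein 5-like gene (CATHA_7653) was higher outdoors by 2.49 ± 0.53 in pair 2 and 1.94 ± 0.44 in pair 3 (edgeR adjusted p = 0.00423 and 0.00495), and in pair 3 the samples of the conditions overlapped. In pairs 1 and 4 it had 1.12 ± 0.33 and 0.95 ± 0.32. CATHA_25227, without a description, was higher outdoors in pairs 2 and 3 by 1.67 ± 0.37 and 1.63 ± 0.32 (edgeR adjusted p = 0.00329 and 8.89e-04). The other 2 of the 8, named after their values were seen, were CATHA_30813 and CATHA_33502. In pairs 2 and 3 CATHA_30813 had 1.97 and 1.10 (edgeR adjusted p = 0.00329 and 0.0213), and CATHA_33502 2.51 and 1.62 (0.0310 and 0.0385). Both pair 3 calls were lost without replicate 1 or 2 indoors or replicate 1 outdoors. That of CATHA_30813 was also lost by DESeq2, and that of CATHA_33502 without replicate 3 outdoors. Both pair 2 calls were lost without replicate 2 indoors, and that of CATHA_33502 also without replicate 3 indoors or 1 outdoors.

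In the other direction, 2 of the genes were lower outdoors in pairs 2 and 3. CATHA_38545 had 141, 90.5 and 238 CPM indoors and 25.8, 28.6 and 21.8 CPM outdoors in pair 3, a log2 fold change of -2.42 ± 0.34, and -2.39 ± 0.41 in pair 2 (edgeR adjusted p = 1.30e-05 and 2.19e-04). In pair 4 it had 3068, 3650.2 and 2961 CPM indoors and 514, 335 and 340.4 CPM outdoors, and in pair 1 774, 328 and 226 against 136, 88.1 and 83.6 CPM, log2 fold changes of -3.11 ± 0.43 and -2.07 ± 0.42. CATHA_1874 had -2.42 ± 0.57 and -1.88 ± 0.45 in pairs 2 and 3 (edgeR adjusted p = 0.00442 and 0.00415), and -1.75 ± 0.30 and -1.32 ± 0.27 in pairs 1 and 4. For both genes the pair 2 and pair 3 calls held in every alternative run, and the conditions did not overlap in any pair.

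HSPRO2 (CATHA_29872) was lower outdoors in pair 3, by a log2 fold change of -1.70 ± 0.44 (edgeR adjusted p = 0.00774), a call lost without replicate 2 of pair 3 indoors (0.0669) or replicate 1 of pair 3 outdoors (0.0618) and by DESeq2 (0.0724). In pair 2 its -0.97 ± 0.63 did not pass the test (edgeR adjusted p = 0.341). In pair 4 it had 295, 316 and 218 CPM indoors and 49.1, 79.4 and 92.98 CPM outdoors, or -1.99 ± 0.52, and in pair 1 -1.80 ± 0.57, which came to -0.52 without replicate 1 of pair 1 indoors, the replicate that stands apart. CATHA_22951 was lower in pair 3 by -1.90 ± 0.58 (edgeR adjusted p = 0.04196), a call lost without replicate 3 of pair 3 indoors (0.104) and without each outdoor replicate (0.112 to 0.172). In pair 2 its -2.27 ± 0.71 did not pass the test (edgeR adjusted p = 0.0555), and in pairs 1 and 4 it had -1.93 ± 0.29 and -1.83 ± 0.26.

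Other genes were apart between the conditions in pair 4 or pair 1 only as a description. CATHA_14912, too low to be tested in pairs 2 and 3, had 127, 135 and 91.8 CPM indoors and 9.53, 10.5 and 16.6 CPM outdoors in pair 4, a log2 fold change of -3.36 ± 0.38. CATHA_9803 had 61.5, 66.8 and 34.7 against 8.33, 10.5 and 11.7 CPM in pair 4, or -2.50 ± 0.69, and did not pass the test in pairs 2 and 3 (-0.14 and -0.67, edgeR adjusted p = 0.926 and 0.324). In pair 1, CATHA_8946 had 7.85, 1.79 and 1.59 CPM indoors and 28.6, 52.1 and 14.5 CPM outdoors, or 3.10 ± 0.73, and it did not pass the test in pairs 2 and 3 either (2.65 and 1.93, edgeR adjusted p = 0.119 and 0.144).

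The neighbouring IDs CATHA_36625 and CATHA_36626 had lower levels outdoors in pair 1 and differed in pair 2. CATHA_36626 was lower outdoors in pair 2, by -2.24 ± 0.66 (edgeR adjusted p = 0.0296), a call lost without replicate 1 or 3 indoors or replicate 2 or 3 outdoors (0.0539 to 0.178) and by DESeq2 (0.0513). In pair 1 it had 71.8, 16.6 and 23.7 CPM indoors and 12.2, 2.45 and 2.56 CPM outdoors, or -2.69 ± 0.66, and in pair 4 109.6, 139 and 175 against 170.1, 194 and 132 CPM, where the conditions overlapped. CATHA_36625 had 0.44 ± 0.33 in pair 2, which did not pass the test (edgeR adjusted p = 0.419). In pair 1 it had 221, 23.5 and 29.6 CPM indoors and 15.4, 7.67 and 23.4 CPM outdoors, or -2.56 ± 0.79, which came to -0.70 without replicate 1 indoors. CATHA_38790 was higher outdoors in pair 3 by 2.75 ± 0.57 (edgeR adjusted p = 0.00105). In pair 2 its 0.62 ± 0.61 did not pass the test (edgeR adjusted p = 0.573), and in pairs 1 and 4 it had 1.88 ± 0.47 and 1.08 ± 0.45.

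The phloem protein gene CATHA_18236 was higher outdoors in pair 2 at 42.4, 30.5 and 23.7 against 11.6, 1.97 and 16.3 CPM, by 1.80 ± 0.55 (edgeR adjusted p = 0.0278). This call was lost without replicate 2 of pair 2 indoors (edgeR adjusted p = 0.268), without replicate 1 (0.0712) or 2 (0.0673) of pair 2 outdoors and by DESeq2 (0.0716). Its 11.6 CPM indoors is from the shallowest library and rests on very few reads. ZCT3 (CATHA_28203) did not pass the test in pair 2 (0.15 ± 0.58, edgeR adjusted p = 0.912) or pair 3 (-0.55 ± 0.42, 0.416). In pair 1 it had -2.60 ± 1.14, a direction that turned without replicate 1 indoors (0.97), and in pair 4 -1.25 ± 0.94.

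**Figure D4:**
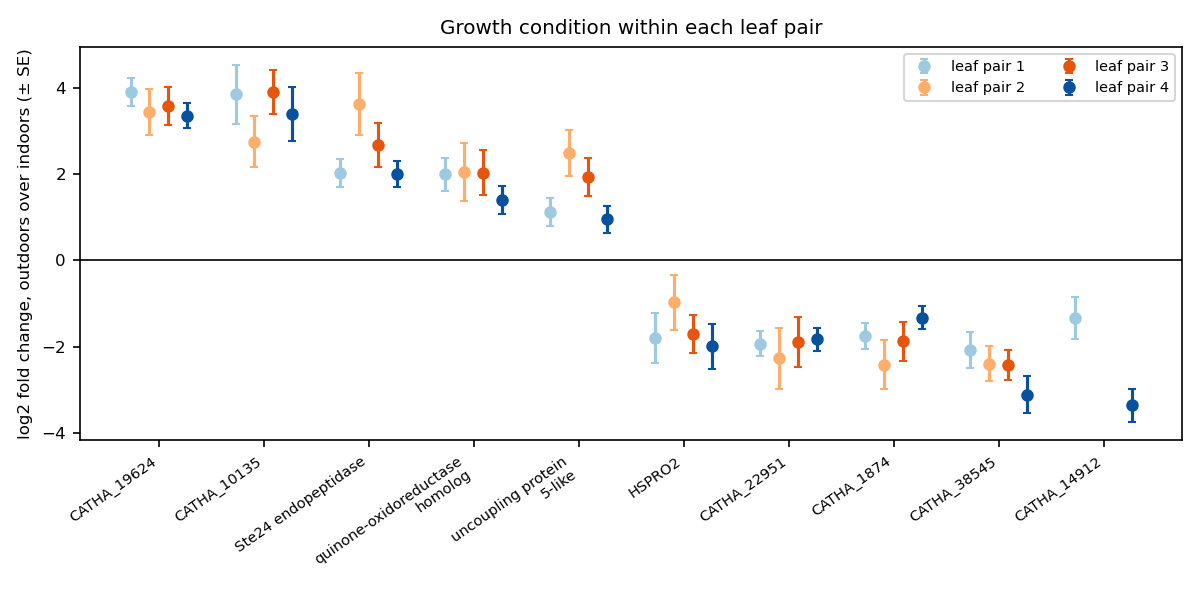
Fitted log2 fold change of outdoors over indoors with its SE (y axis) for 10 of the 150 genes (x axis) in each leaf pair (colour); pairs 1 and 4 are Illumina and pairs 2 and 3 Nanopore libraries, and CATHA_14912 could not be tested in pairs 2 and 3. Pairs 1 and 4 chose the genes and are shown as a description. The first 5 genes lie above 0 and the last 5 below it in each pair shown, from 3.90 for CATHA_19624 in pair 1 to -3.36 for CATHA_14912 in pair 4.

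The FACS experiment shows in which leaf preparations the genes were counted, and it was not used by the rule. For total protoplasts against leaves 149 of the 150 genes could be tested. By edgeR 51 of them (34.2%) were called higher in total protoplasts and 47 (31.5%) lower, where 22.5% and 27.5% of 17533 genes were. Without FACS leaf 1 the counts were 65 and 42, where 22.7% and 24.3% of all genes then tested were, and without FACS leaf 2 they were 63 and 49, where 24.8% and 24.4% were. Over all 9 protoplast libraries 34 of the 150 genes were at 100 CPM or more in every library, and 37 were under 10 CPM in every library. The idioblast markers summed to 969 to 1050 CPM in the leaves and 85.3 to 129.8 CPM in total protoplasts, those of internal phloem-associated parenchyma to 351 to 1797 and 141 to 272 CPM, and those of epidermis to 872 to 2870.2 and 1579 to 2065 CPM, and their part was not tested.

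Among the genes higher in total protoplasts, CATHA_15682 had 17.8 and 13.8 CPM in the leaves and 2060.4, 2369 and 2485 CPM in total protoplasts, a log2 fold change of 7.65 ± 0.43 (edgeR adjusted p = 5.50e-07). CATHA_24191 had 34.6 and 48.6 CPM in the leaves and 3405, 4477 and 4164 CPM in total protoplasts, or 7.01 ± 0.44 (edgeR adjusted p = 8.96e-07). CATHA_9803 had 5.77 and 9.06 CPM against 405, 503 and 470.2 CPM and 6.37 ± 0.50 (edgeR adjusted p = 3.61e-06). Of the genes with a description, HSPRO2 (CATHA_29872) had 48.6 and 28.3 CPM in the leaves and 609, 721 and 917 CPM in total protoplasts (4.77 ± 0.45, edgeR adjusted p = 1.13e-05). The NAC domain gene (CATHA_26934) had 31.7 and 19.4 against 372, 364 and 443 CPM (4.41 ± 0.36, edgeR adjusted p = 4.55e-06). ZCT3 (CATHA_28203) had 45.03 and 142 against 398, 351 and 603 CPM (2.63 ± 0.51, edgeR adjusted p = 0.001204). In each of these 6 genes all protoplast samples lay above both leaves.

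The quinone-oxidoreductase homolog (CATHA_15990) and knotted-1-like 3 (CATHA_27845) were higher in total protoplasts by 3.68 ± 0.34 and 3.67 ± 0.36 on the log2 scale (edgeR adjusted p = 9.78e-06 and 1.50e-05), and the clathrin assembly protein gene (CATHA_6372) by 2.75 ± 0.73 (0.00782). The xyloglucan endotransglucosylase/hydrolase (CATHA_3498) had 0 and 0.3897 CPM in the leaves and 4.43, 4.598 and 5.15 CPM in total protoplasts (edgeR adjusted p = 1.38e-04). These calls and the 6 before them held in every alternative run. The uncoupling protein 5-like gene (CATHA_7653) had 17.2 and 115 CPM in the leaves and 211, 246 and 237 CPM in total protoplasts, a log2 fold change of 2.15 ± 0.68 (edgeR adjusted p = 0.01901, and 0.0743 in the fit of these groups alone).

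Other genes of the 150 were lower in total protoplasts than in the leaves. CATHA_32273 had 819 and 717 CPM in the leaves and 5.69, 4.79 and 11.4 CPM in total protoplasts, a log2 fold change of -6.27 ± 0.64 (edgeR adjusted p = 1.93e-05). CATHA_25227 had 888 and 63.8 CPM against 5.86, 1.95 and 0.468 CPM, or -6.90 ± 1.02 (edgeR adjusted p = 2.22e-04). CATHA_18194 had 534 counts in the 2 leaf samples and 3 in the 3 total protoplast samples, a ratio of 309 with a 95% counting interval of 105 to 1502 (edgeR adjusted p = 5.49e-04). The phloem protein gene (CATHA_18236) had 26.9 and 18.5 against 0.9201, 1.07 and 0.468 CPM (-4.31 ± 0.83, edgeR adjusted p = 0.00127), and Oxidative stress 3 (CATHA_16439) 231 and 188 against 37.6, 37.5 and 79.8 CPM (-1.56 ± 0.31, 0.00149), with 180.3 to 226 CPM in idioblast protoplasts. All total protoplast samples lay below both leaves in these 5 genes.

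In 4 further genes, singled out after their values were seen, both leaves lay above all 9 protoplast samples. These 4 are examples and not a count of such genes. CATHA_4323 had 9154 and 4361 CPM in the leaves, 123, 139 and 89.1 CPM in total protoplasts and 1.97 to 6.35 CPM in the sorted ones. CATHA_2413 had 9052 and 3727 CPM in the leaves and 116, 153 and 90.9 CPM in total protoplasts. CATHA_26674 had 13171 and 5623 against 265, 384 and 234 CPM, and CATHA_28368 1964 and 1277 against 21.9, 34.8 and 25.5 CPM. In 14 of the 150 genes, these 4 included, all 6 sorted samples lay below all 3 of total protoplasts, as in 2.23% of the 10819 genes. CATHA_36446 and CATHA_18194 were among 5 genes under 1 CPM in all 9 protoplast libraries, the others being CATHA_10433, CATHA_18713 and CATHA_20193. Beta-amylase (CATHA_23527) did not pass the test, at 406 and 312 CPM in the leaves and 202, 249 and 232 CPM in total protoplasts (-0.20 ± 0.23, edgeR adjusted p = 0.4901).

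Between the sorted cell types, 19 of the 150 genes (12.7%) were called higher in idioblast than in mesophyll protoplasts and 15 (10%) lower by edgeR, where 7.21% and 9.12% of 18339 genes were. Without replicate 1 or replicate 2 of the mesophyll protoplasts 12 (8%) were called higher, where 6.77% and 6.37% of all genes then tested were. The idioblast markers summed to 1111 to 2542 CPM in idioblast and 38.5 to 104 CPM in mesophyll protoplasts, and the epidermis markers to 135 to 180.1 and 1712 to 2097 CPM. DAT was at 0 in 2 of the 3 mesophyll samples and no other marker of these 2 lists was at 0 in a sorted sample. The mesophyll samples were sorted as common mesophyll cells, and the part of these markers in the values was not tested. Since the study listed many of the described genes for their idioblast levels, the direction of described genes here is not independent evidence.

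The xyloglucan endotransglucosylase/hydrolase (CATHA_3498) had 23.4, 23.7 and 20.8 CPM in idioblast and 2.07, 1.66 and 2.24 CPM in mesophyll protoplasts, a log2 fold change of 3.48 ± 0.64 (edgeR adjusted p = 4.22e-04). Oxidative stress 3 (CATHA_16439) had 226, 221 and 180.3 against 26.1, 31.3 and 27.5 CPM (2.85 ± 0.43, edgeR adjusted p = 5.56e-05). Nudix hydrolase 17 (CATHA_9385), of a family that cleaves nucleotide derivatives, had 674, 922 and 937 against 126, 122 and 186 CPM (2.51 ± 0.38, edgeR adjusted p = 6.35e-05). These 3 were apart between the cell types in every sample. Knotted-1-like 3 (CATHA_27845) had 196, 198 and 207 against 40.04, 37.1 and 53.9 CPM (2.16 ± 0.31, edgeR adjusted p = 3.98e-05). The NAC domain gene (CATHA_26934) had 1136, 877 and 954 against 394, 261 and 181 CPM (1.82 ± 0.40, edgeR adjusted p = 0.00189), and the clathrin assembly protein gene (CATHA_6372) 58.8, 39.2 and 50.3 against 13.3, 4.499 and 13.4 CPM (2.22 ± 0.56, 0.00582). In these 3, too, all idioblast samples lay above all mesophyll samples, and all 6 calls held in every alternative run.

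The nitrate transporter (CATHA_10418) was higher in idioblasts by 1.68 ± 0.52 on the log2 scale (edgeR adjusted p = 0.0215), a call lost without replicate 2 (0.0703) or replicate 3 (0.0883) of the mesophyll protoplasts. Beta-amylase (CATHA_23527, 1.13 ± 0.42, edgeR adjusted p = 0.0482) lost its call without any 1 of the 6 samples (0.0586 to 0.167). The protein kinase domain gene CATHA_19986 (1.23 ± 0.40, edgeR adjusted p = 0.0274) lost its call without replicate 2 or 3 of the idioblasts or replicate 1 or 2 of the mesophyll (0.0572 to 0.116). The EGF-like domain gene (CATHA_19988, 1.38 ± 0.48, edgeR adjusted p = 0.0397) lost it without the same samples (0.0782 to 0.141). The mitogen-activated protein kinase kinase kinase gene (CATHA_20233, 1.30 ± 0.44, edgeR adjusted p = 0.0339) lost it without any 1 sample but replicate 3 of the mesophyll (0.0626 to 0.134). ZCT3 (CATHA_28203), at 544 to 682 CPM in idioblast and 234 to 293 CPM in mesophyll protoplasts, did not pass the test (1.17 ± 0.77, edgeR adjusted p = 0.281), although its groups did not overlap, nor did HSPRO2 (CATHA_29872, 1.20 ± 0.47, 0.0625).

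Lower in idioblasts were CATHA_3575, with 7.09, 6.21 and 5.15 CPM against 52.8, 64.5 and 60.1 CPM in mesophyll protoplasts (-3.30 ± 0.32, edgeR adjusted p = 2.85e-07), CATHA_37104 (-2.44 ± 0.40, 1.33e-04) and CATHA_10135 (-2.84 ± 0.61, 0.00171). The last, which was called higher outdoors in pairs 2 and 3, had 4.03, 1.22 and 4.64 CPM in idioblast and 18.1, 23.05 and 26.5 CPM in mesophyll protoplasts. CATHA_19624 and CATHA_38790, named above for their growth differences, were also lower in idioblasts, by -3.37 ± 0.62 and -3.34 ± 0.63 (edgeR adjusted p = 4.07e-04 and 5.49e-04). Their mesophyll means were low, at 6.36 and 8.71 CPM. These calls, too, held in every alternative run. For the phloem protein gene (CATHA_18236, 3.36 ± 1.21, edgeR adjusted p = 0.0446) both sorted groups were under 1 CPM in every sample, and the call was lost with the sorted samples paired by number as a block (0.0529), with no filter on low counts (0.0523) and without replicate 1 or 2 of the idioblasts or 1 or 3 of the mesophyll (0.118 to 0.139).

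**Figure D5:**
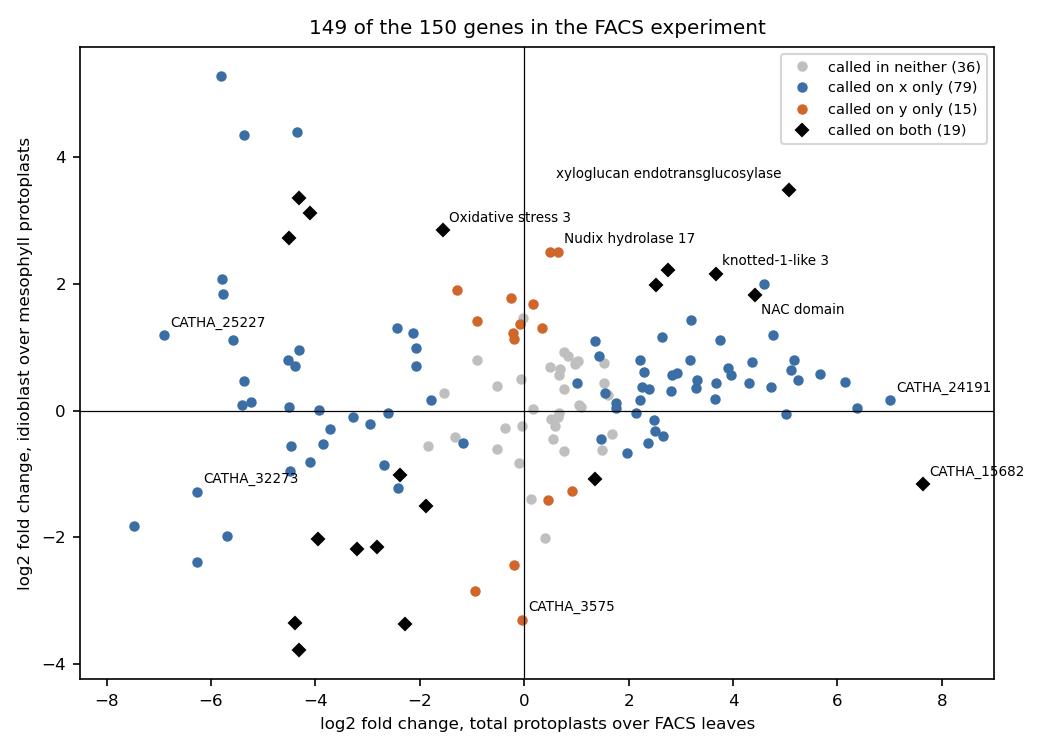
Fitted log2 fold change of idioblast over mesophyll protoplasts (y axis) against that of total protoplasts over FACS leaves (x axis) for the 149 genes tested in both; grey, called in neither; blue, called on the x axis only; orange, on the y axis only; black, on both (19 genes). CATHA_15682 lies farthest right, at 7.65, and genes are called in each direction on both axes.

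For context, other genes of the same roles were counted in pair 4 against pair 1, in lists by function. Names were available only from the study's own tables, which describe 1284 genes, many of them listed for their idioblast levels. Each list is therefore a part of its gene family and not an even sample of it. Where a list holds 1 of the 150 genes, which this contrast chose, that gene is left out of the counts and medians. Among all 17299 genes tested, 11.5% were called higher and 10.8% lower in pair 4 indoors, and 8.41% and 13.9% outdoors, with medians of 0.0469 and -1.57e-05 on the log2 scale. Of the 5 other NAC factors tested, 2 were higher and 0 lower indoors, and 3 were higher and 1 lower outdoors, with medians of 1.505 and 1.12. Of 7 other genes of sugar and starch metabolism, 3 were higher and 1 lower indoors and 3 higher and 2 lower outdoors, with medians of 0.92 and 0.79. Of 8 other genes of nitrogen and amino acid metabolism and transport, 2 were higher indoors and 3 outdoors and 0 lower, with medians of 0.70 and 0.96. Of 9 other cell wall enzyme genes, 5 were higher and 0 lower indoors, and 3 were higher and 2 lower outdoors, with medians of 1.07 and 0.77. Among 19 other proteases and peptidases, 3 were higher and 2 lower indoors and 4 higher and 2 lower outdoors, with medians of -0.0235 and -0.0818. Among 21 other receptor-like kinases, 5 were higher and 1 lower indoors and 3 higher and 3 lower outdoors, with medians of 0.15 and -0.22.

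ZCT3 has close relatives, ZCT1 and ZCT2, among the 15 other MIA transcription factors tested, of which 5 were higher and 2 lower indoors and 2 higher and 3 lower outdoors, with medians of 0.31 and 0.0184. ZCT1 (CATHA_38787) was higher by 5.40 ± 0.58 indoors and 3.28 ± 0.68 outdoors on the log2 scale (edgeR adjusted p = 5.26e-05 and 0.00187). ZCT2 (CATHA_13529) was higher by 3.46 ± 0.64 indoors (9.44e-04) and had 0.84 ± 1.12 outdoors (edgeR adjusted p = 0.552). ORCA4 (CATHA_9516), of a family of activators of MIA genes, had log2 fold changes of -3.03 ± 0.42 and -5.28 ± 0.50 (edgeR adjusted p = 1.77e-04 and 2.22e-05). Of the pathway genes, 6 of 11 in the iridoid part were lower and 0 higher indoors, and 7 lower and 0 higher outdoors, with medians of -1.34 and -1.49. In the indole and central part 3 of 13 were lower indoors and 12 outdoors, with 0 higher in each and medians of -0.45 and -1.38. In the late vindoline part 6 of 9 were lower and 2 higher indoors and 4 lower and 1 higher outdoors, with medians of -1.31 and -0.999. All 11 iridoid genes and 3 of the indole part are themselves among the epidermis or phloem-associated markers given above.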

How the data were processed

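Gene counts were used as deposited. For the Illumina libraries (leaf pairs 1 and 4 and the FACS samples) the authors trimmed reads with Trimmomatic (version 0.39), mapped them to version 2 of the genome with HISAT2, and deposited raw counts per gene made by featureCounts (version 2.0.1) on their own gene models. For the Nanopore libraries (pairs 2 and 3) the authors deposited estimated counts per gene, for which minimap2 and Salmon (version 1.4.0) are named in the submitters' processing notes. These were rounded to whole numbers. FACS libraries were made with Smart-seq2 and those of pairs 1 and 4 with TruSeq kits, and the counting is not stated to use strand, so antisense genes cannot be told apart. Illumina and Nanopore libraries were never fitted together. The 150 genes and the gene lists were chosen with earlier results of these data known.

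Counts were fitted in R (version 4.3.3) with edgeR (version 4.0.16) across all genes, with filterByExpr, TMM and the robust quasi-likelihood F test. Pairs 1 and 4 and pairs 2 and 3 were fitted separately, and total protoplasts against leaves in the FACS samples alone. Idioblast against mesophyll protoplasts was fitted with all protoplast samples and those of leaf pairs 1 and 4, which also chose the genes. P-values were two-sided and adjusted by Benjamini-Hochberg over all genes tested. Calls were made at an adjusted p no higher than 0.05 where the log2 fold change was also 1 or more in size, and the SE of a log2 fold change is its size over the square root of F. The fits were tested on simulated data. Tables and figures were made in Python (version 3.11.15). Ratios of low counts have exact 95% intervals that cover counting error only. Named genes were the 5 highest scores, every described gene, up to 3 of the largest changes called in each direction per comparison whose groups do not overlap and with at least 10 CPM, and the 2 genes on each side of the limit. No gene ID matched the RefSeq table, so no position or sequence is given.

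Leaf pairs 1 to 4 of a set came from the same 3 plants, and whether a replicate number marks a plant is not given in the sources used here. The p-values measure the spread between these samples. The methods pair the FACS samples, and deviations of same-numbered samples correlated at 0.214 to 0.66 for idioblast and mesophyll protoplasts and at 0.242 to 0.249 for total protoplasts and leaves. Alternatives were DESeq2 (version 1.42.0), its size factors in edgeR, no filter on low counts, a replicate block, fits of only the groups compared, and leaving out each replicate in turn. Growth tests planned for pairs 1 and 4 are not reported, because these samples chose the genes. The authors' own comparisons were not used.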

Additional observations from a re-analysis of the deposited data

Results flagged for a closer look

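For 2 of the 150 genes every outdoor sample moved away from the indoor samples in one direction in pair 1 and in the opposite direction in pair 4. The difference between the pairs was not tested, because both leaf pairs chose the genes. The same pattern was found in 1.82% of the 10819 genes from which they were chosen, and it rests on the values that chose them. The 2 genes are no larger a share of the 150, so nothing is read from their number. CATHA_6330 had 9.44, 2.44 and 4.18 CPM indoors and 0.97, 1.79 and 1.28 CPM outdoors in pair 1, a log2 ratio of means of -1.44 after adding 1 CPM. In pair 4 it had 31.6, 36.7 and 28.3 CPM indoors and 40.4, 95.5 and 159.8 CPM outdoors, a log2 ratio of 1.58. CATHA_7164 had 1.20, 0.574 and 0.919 CPM indoors and 3.58, 1.26 and 2.42 CPM outdoors in pair 1, a log2 ratio of 0.85. In pair 4 it had 17.9, 30.03 and 18.9 CPM indoors and 11.9, 10.1 and 14.0 CPM outdoors, a log2 ratio of -0.84.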

How the results depend on the processing

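Across the named genes and their comparisons, 1158 alternative values kept their direction and their side of the limits (for pairs 1 and 4, which have no test, moved by less than the spread between replicates), 13 passed the limits only in the alternative, 86 no longer passed them, 2 moved by more than that spread and 3 turned their direction. The 3 were the pair 1 growth difference of CATHA_28203, at 0.97 without replicate 1 of pair 1 indoors and down to -3.15 without the others, that of CATHA_7255, at -0.0947 without replicate 1 of pair 1 outdoors and up to 2.27 without the others, and the difference of CATHA_2175 between total protoplasts and leaves, at 0.65 without FACS leaf 2 and -2.34 without FACS leaf 1. The cause was not tested. For pair 3 against pair 2, where 8 of the 150 genes were called higher, DESeq2 called 3, no filter on low counts 30 and leaving out 1 replicate 0 to 11. Leaf pairs of a set came from the same 3 plants, and the sources do not say that a replicate number marks a plant. With that number as a block 32 were called, all 8 among them, and the deviations of same-numbered samples correlated at 0.0441 to 0.12 indoors and 0.177 to 0.365 outdoors, each sample best with its own number. For growth in pair 3, the block called 14 higher where 9 were called without it, and leaving out 1 replicate gave 7 to 17. In pair 2 leaving out 1 replicate gave 6 to 11 called higher, where 13 were called with all. For idioblast against mesophyll protoplasts leaving out 1 replicate gave 12 to 21 higher, and the fit of these groups alone 25 of 136. With the sorted samples paired as a block, 22 were higher and 17 lower and only the call of CATHA_18236 was lost. With total protoplasts and leaves paired, 52 were higher and 46 lower, and the calls of CATHA_5192, CATHA_16655 and CATHA_25222 were lost. The choice of genes kept 122 of the 150 with 5 CPM added, 115 with a minimum of 20 CPM, 145 with TMM-scaled totals and 132 to 147 with 1 replicate left out. Depth limits the Nanopore comparisons, where 80 of the 150 genes were too low to be tested. Groups have 2 or 3 samples.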
